A study of Mus musculus with 3 samples.

Results

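The TCR beta repertoires of DN and CD4 T cells from the spleen of 1 MRL.lpr mouse were set against each other, with 1 library for each subset. Clonotypes were taken from the rows of each table whose best V gene was a TRBV gene and whose best J gene was a TRBJ gene, and they were kept if the CDR3 was in frame and free of stop codons. This gave 38188 DN and 41301 CD4 clonotypes, together 79489 of the 168230 clonotypes in the 3 libraries of the study. The third library, from CD8 T cells of the same mouse (77240 clonotypes by the same rule), is given beside both for reference.

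The mouse was 16 weeks old and carried the lpr mutation of Fas, so that the CD4 cells used here as the comparison came from the same lupus-prone animal and were not a healthy control. The subsets were separated by flow cytometry, and RNA was taken from 1000000 cells of each. DN T cells are T cells that carry TCRβ and lack both CD4 and CD8. The exact gate used for this sort is not given in the sources used here. Clonotype tables hold no transcripts other than those of the receptor, so neither label could be checked against CD4 or CD8 levels. The study asked from which T cells the DN T cells of lupus arise, and the comparison here describes how far their TCR beta chains differ from those of CD4 T cells.

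The TCR beta chain is assembled in the thymus by joining a V, a D and a J segment. Bases are trimmed and added at both junctions, and these junctions form the CDR3, the loop that sits over the peptide when the receptor meets MHC. Most CD4 T cells recognise peptides on MHC class II and most CD8 T cells on MHC class I, and the V segment carries the other loops that touch MHC. In lpr mice, DN T cells that carry αβ receptors accumulate in lymph nodes and spleen. The mouse locus has 2 D segments, each followed by its own cluster of J segments, so that TRBD1 can join both clusters, and TRBD2 normally joins the TRBJ2 cluster.

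A share of clonotypes counts each distinct CDR3 once, whereas a share of reads weights it by its reads, and thus follows both clone size and mRNA amount. DN clonotypes had 185135 reads, 4.85 per clonotype, and CD4 clonotypes had 126738 reads, 3.07 per clonotype. A single read supported 55.0% of the DN and 60.9% of the CD4 clonotypes. Intervals are 95% intervals with the clonotype as the unit (Wilson for shares, log scale for ratios), and they cover counting error only. Reads carry no molecular identifier in these tables, and with 1 library per subset no difference has a replicate check. A gene or pair was called when its DN share was at least 1.5-fold above or below its CD4 share, among those with at least 50 clonotypes in both libraries together. A two-sided Fisher's exact test, adjusted by Benjamini-Hochberg over the family, compares these libraries and not the subsets.

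Examples of the CDR3s behind the comparison are printed first, as the bases from the conserved cysteine to the last phenylalanine, with the codons of charged residues (Asp, Glu, Lys and Arg) in capitals. The first and second are the clonotypes with the most reads in each library. The next 3 are the largest DN clonotypes of the V-J pairs with the highest DN over CD4 ratio, and the last 3 the largest CD4 clonotypes of the pairs with the lowest.
TRBV13-1 with TRBJ2-4, DN: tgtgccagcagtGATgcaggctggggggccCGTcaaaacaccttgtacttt
TRBV13-2 with TRBJ2-5, CD4: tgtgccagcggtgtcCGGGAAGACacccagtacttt
TRBV17 with TRBJ2-7, DN: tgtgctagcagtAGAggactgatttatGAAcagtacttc
TRBV17 with TRBJ1-1, DN: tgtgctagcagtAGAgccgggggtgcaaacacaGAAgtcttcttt
TRBV17 with TRBJ2-1, DN: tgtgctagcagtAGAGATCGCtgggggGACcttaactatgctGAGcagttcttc
TRBV20 with TRBJ1-5, CD4: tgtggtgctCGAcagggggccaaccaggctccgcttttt
TRBV2 with TRBJ1-3, CD4: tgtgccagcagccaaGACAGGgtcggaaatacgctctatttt
TRBV20 with TRBJ1-3, CD4: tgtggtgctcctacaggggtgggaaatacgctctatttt

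The largest DN clonotype had 17 residues and a net charge of 0, with 1374 reads in the DN, 62 in the CD4 and 225 in the CD8 library. The largest CD4 clonotype had 12 residues and a net charge of -1, with 1484 reads in the CD4, 3 in the DN and 21 in the CD8 library. The DN clonotypes of the 3 TRBV17 pairs had 203, 100 and 392 DN reads, and each was also found in the CD4 library, with 6, 3 and 8 reads. The CD4 clonotypes of the TRBV20 and TRBV2 pairs, with 65, 19 and 73 CD4 reads, were not found among the DN reads, which allows a share of up to 0.00162% of DN reads each.

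V gene use differed widely. TRBV17 was 2.86-fold more common among DN than among CD4 clonotypes, and TRBV20 was the V gene with the lowest ratio, at 0.184. Of the 20 V genes tested, 5 were called higher in DN by clonotypes, which is 25% of those tested, and 8 were called lower, which is 40%. To make V use equal, 24.7% of the DN clonotypes would have had to carry another V gene. The same measure was 18.0% between DN and CD8 and 29.8% between CD4 and CD8 clonotypes. By Fisher's exact test, 17 of the 20 V genes had an adjusted p under 0.05, 7 higher and 10 lower in DN.

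Among the genes higher in DN, TRBV17 (the older Vβ9) took 9.43% of DN clonotypes (9.14 to 9.72%) and 3.29% of CD4 clonotypes (3.12 to 3.47%). TRBV14 took 2.63% and 1.28%, a ratio of 2.05 (1.85 to 2.28). TRBV13-3, also known as Vβ8.1, took 10.2% of DN and 5.48% of CD4 clonotypes, a ratio of 1.85 (1.76 to 1.95). These 3 genes were thus each more common in DN by a margin far wider than the counting error. TRBV1 took 11.9% and 6.68%, a ratio of 1.79 (1.71 to 1.87). TRBV16 was rare in both, with 81 DN and 51 CD4 clonotypes, and its ratio of 1.72 had an interval of 1.21 to 2.44. The CD8 shares of these 5 genes were 6.51%, 6.55%, 14.9%, 11.5% and 1.15%, each above the CD4 share.

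TRBV13-1 was the largest V gene of the DN library, with 19.2% of clonotypes against 12.8% in CD4 and 9.21% in CD8. Its ratio of 1.49 (1.45 to 1.54) lay just under the 1.5-fold call, as did that of TRBV29, also 1.49 (1.36 to 1.65). The related TRBV13-2 was the largest V gene of the CD4 library and was used alike, with 12.9% of clonotypes in each (ratio 0.99, interval 0.96 to 1.03). The 3 genes of the Vβ8 family therefore differed among themselves in their DN over CD4 ratio, from 0.99 for TRBV13-2 to 1.85 for TRBV13-3. Their sum was 42.2% of DN, 31.2% of CD4 and 34.5% of CD8 clonotypes.

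Among the genes lower in DN, TRBV20 (Vβ15) took 1.80% of DN clonotypes (1.67 to 1.94%) and 9.80% of CD4 clonotypes (9.51 to 10.1%). In the CD8 library it took 2.97%. TRBV12-2 had 19 DN and 107 CD4 clonotypes, a ratio of 0.192 (0.118 to 0.313). TRBV2 took 1.45% and 4.24% (ratio 0.342), TRBV26 1.79% and 4.995% (0.359), TRBV4 3.71% and 8.22% (0.452), and TRBV5 6.96% and 11.02% (0.631). TRBV30 (0.614) and TRBV23 (0.487) were below 1% in both libraries, and TRBV3 lay just outside the call, at 0.668. The CD8 shares of TRBV2, TRBV26, TRBV4, TRBV5 and TRBV30 were 0.996%, 2.09%, 3.67%, 5.27% and 0.515%. Like that of TRBV20, each was nearer to the DN than to the CD4 share. Those of TRBV12-2 (0.236%) and TRBV23 (0.0842%) were nearer to the CD4 share. The 8 genes called lower summed to 16.3% of DN and 39.4% of CD4 clonotypes, and the 5 called higher to 34.4% and 16.9%.

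The remaining tested genes were not called. TRBV31 was lower in DN by less than the fold, with a ratio of 0.859 (0.818 to 0.902). TRBV19 had a ratio of 0.984 (0.936 to 1.03), and the rare TRBV15 one of 0.882 with an interval of 0.549 to 1.42. The other 6 V genes found had under 50 clonotypes each and together held 54 DN and 65 CD4 clonotypes.

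**Figure D1:**
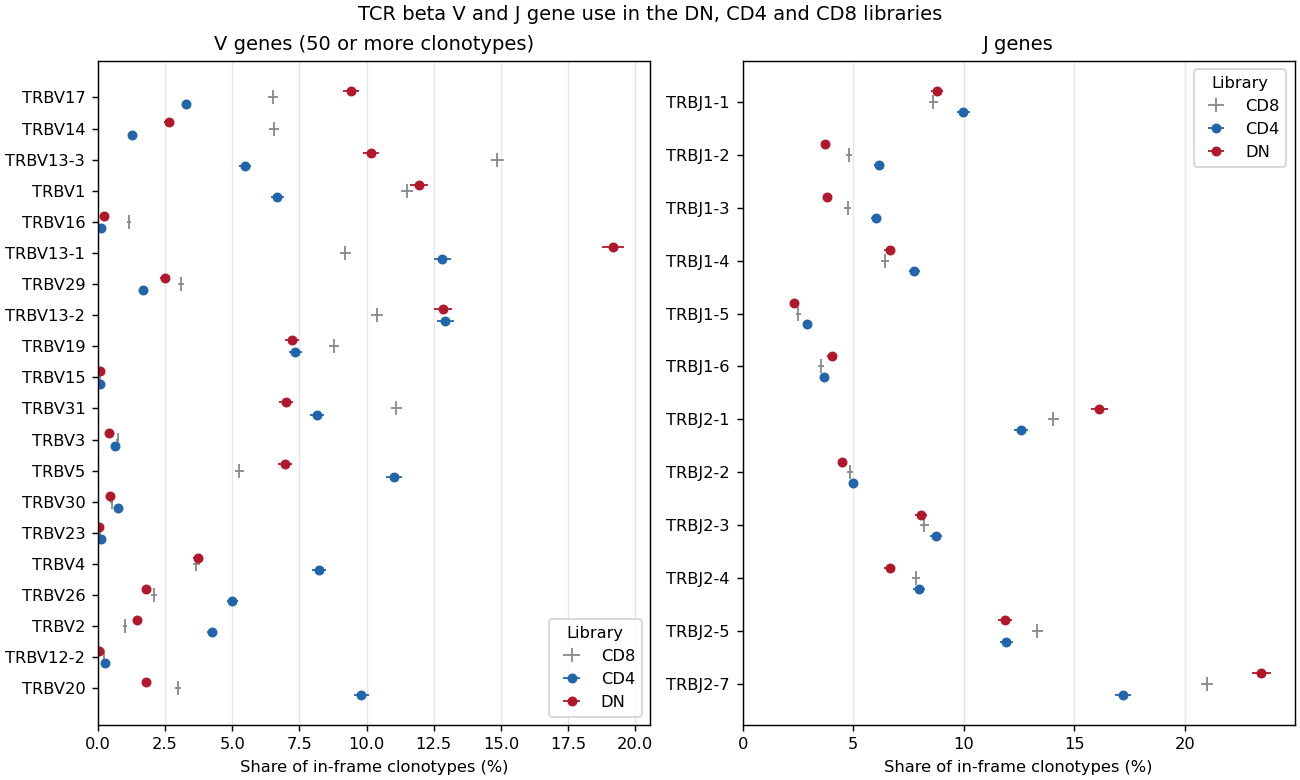
Share of in-frame clonotypes (%, horizontal axis) of each tested V gene (left, ordered by the DN over CD4 ratio) and each J gene (right) in the DN, CD4 and CD8 libraries, with 95% Wilson intervals as bars. TRBV13-1 (19.2% of DN and 12.8% of CD4 clonotypes) and TRBV20 (1.80% and 9.80%) stand apart, as does TRBJ2-7 among the J genes (23.5% and 17.2%).

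By reads, 8 V genes were called higher in DN, which is 40% of the 20, and 5 lower, which is 25%. All 5 genes called higher by clonotypes were also called higher by reads, and 5 of the 8 called lower were called lower by reads. For TRBV16 the read ratio of 1.53 had an interval of 0.674 to 3.47, which holds 1. TRBV20 took 1.18% of DN and 9.30% of CD4 reads, a ratio of 0.126 (0.0896 to 0.178). TRBV17 took 7.85% and 3.66% of reads, a ratio of 2.15 (1.71 to 2.70), smaller than by clonotypes. TRBV13-1 (1.53) and TRBV29 (1.71) passed the fold by reads. TRBV15 also passed it, at 1.78, with an interval of 0.327 to 9.66 that holds 1 too. TRBV13-2 took 11.9% of DN and 15.1% of CD4 reads, a ratio of 0.792 (0.638 to 0.983), while its ratio by clonotypes was 0.99. The largest CD4 clonotype, with 1484 reads, and another with 1275 reads are TRBV13-2 clonotypes found in both libraries. Without shared clonotypes the read ratio was 0.978 (0.892 to 1.07), and without the 100 largest clonotypes of each library it was also 0.978 (0.895 to 1.07). TRBV23 was at 0.487 by clonotypes and at 1.01 by reads, with 18 and 40 clonotypes behind it.

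A pair of V gene lists was taken from what is known of superantigens of endogenous mouse mammary tumour viruses, which bind V segments and delete the T cells that carry them in the thymus. The genes deleted by viral superantigens presented by I-E (TRBV12-1, TRBV12-2, TRBV15 and TRBV16) summed to 0.377% of DN and 0.508% of CD4 clonotypes, and to 1.61% of CD8 clonotypes. TRBV12-1 had only 13 and 14 clonotypes and was not tested. The median ratio of these 4 genes was 0.943, against 0.871 for all V genes tested, but the genes went opposite ways. TRBV12-2 was called lower (0.192) and TRBV16 higher (1.72), while the intervals of TRBV15 (0.882) and TRBV12-1 (1.00) held 1. The genes that react with the product of the provirus Mtv-7 (TRBV13-3, TRBV17, TRBV19 and TRBV29) summed to 29.3% of DN, 17.8% of CD4 and 33.2% of CD8 clonotypes, with a median ratio of 1.67. Of these, TRBV13-3 and TRBV17 were called higher, TRBV29 lay at the boundary and TRBV19 was used alike. Which proviruses the mouse carried was not examined here.

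V gene differences were present in clonotypes with few reads and were less certain in those with the most. Clonotypes were divided by their reads into those with 1, 2 to 9, 10 to 99 and 100 or more, which held 21004, 14389, 2589 and 206 DN clonotypes and 25158, 14372, 1689 and 82 CD4 clonotypes. The classes were not scaled to the reads per clonotype, which were 4.85 in DN and 3.07 in CD4. The same class therefore need not hold clones of the same size in both libraries. Of the 20 V genes, 5 were above 1 in every class and 6 were below 1 in every class. The 6 include TRBV13-2, whose intervals held 1 in each class. In the class of 100 or more reads, only TRBV13-3, TRBV4 and TRBV20 had intervals clear of 1. TRBV5 (1.35) and TRBV31 (1.39) were above 1 there, unlike in the smaller classes, with intervals that held 1. TRBV12-2, TRBV15, TRBV16, TRBV23 and TRBV30 had no ratio in that class. TRBV20 had ratios of 0.206, 0.163, 0.135 and 0.0498 from the smallest to the largest class, the last resting on 1 DN and 8 CD4 clonotypes. TRBV17 had ratios of 2.81, 3.11, 1.98 and 1.79, and the interval of the last (0.625 to 5.13) holds 1. TRBV13-1 had 1.51, 1.46 and 1.49 in the first 3 classes and 0.983 (0.595 to 1.62) among clonotypes with 100 or more reads.

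Clonotypes that are out of frame or hold a stop codon come mostly from the other allele of a T cell and give no protein. The same comparison was therefore made in them, although reading errors that shift the frame would be counted there too. There were 3760 such DN and 3506 such CD4 clonotypes. Among them, V use differed by a smaller share, 11.05% of clonotypes, against 24.7% in frame. Only TRBV17 was 1.5-fold higher or more in DN (1.72, interval 1.32 to 2.26), and TRBV16 (0.542), TRBV20 (0.331) and TRBV26 (0.435) were lower. No J gene passed the fold.

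For some genes the non-productive clonotypes did not share the direction of the in-frame ones. TRBV4 took 10.9% of DN and 9.93% of CD4 non-productive clonotypes, a ratio of 1.10 (0.960 to 1.26), so that its in-frame ratio was only 0.411 (0.355 to 0.477) of that. TRBV12-2 had 49 DN and 34 CD4 non-productive clonotypes, a ratio of 1.34 with an interval of 0.870 to 2.08 that holds 1. Its in-frame ratio was 0.143 (0.0743 to 0.275) of that. TRBV16 went the other way, with 75 and 129 non-productive clonotypes, and its in-frame ratio was 3.17 (2.02 to 4.96) times the non-productive one. TRBV20 was lower in both, and more so in frame, by a factor of 0.556 (0.392 to 0.789). TRBV26 was lower by a similar amount in both, with a factor of 0.825 (0.549 to 1.24). Of the 20 genes with enough non-productive clonotypes, this factor had an interval above 1 in 7, below 1 in 6 and holding 1 in 7.

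**Figure D2:**
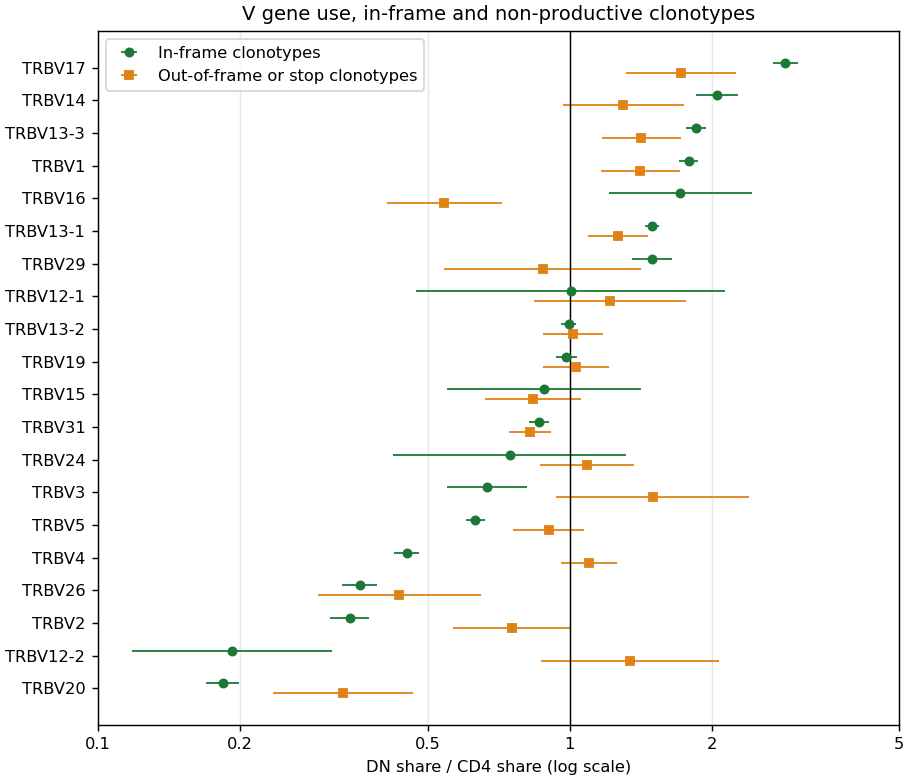
DN share over CD4 share (log axis) of the 20 V genes with at least 50 non-productive clonotypes, for in-frame clonotypes (circles) and for out-of-frame or stop clonotypes (squares), with 95% intervals. TRBV17 and TRBV20 lie on the same side of 1 in both, and TRBV4 lies at 0.452 in frame and at 1.10 among non-productive clonotypes.

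J gene use differed less than V gene use, by 10.2% of clonotypes. None of the 12 J genes was called higher in DN by clonotypes (0%) and 2 were called lower (16.7%), TRBJ1-2 with 3.71% of DN and 6.17% of CD4 clonotypes (ratio 0.601, interval 0.564 to 0.640) and TRBJ1-3 with 3.82% and 6.04% (0.633). The highest ratios were those of TRBJ2-7, with 23.5% and 17.2% (1.36, interval 1.32 to 1.40), and TRBJ2-1, with 16.1% and 12.6% (1.28). TRBJ1-6 (1.10) was also above 1, TRBJ2-5 was equal (0.995, interval 0.958 to 1.03), and the other 6, TRBJ1-1, TRBJ1-4, TRBJ1-5, TRBJ2-2, TRBJ2-3 and TRBJ2-4, lay between 0.793 and 0.921. By reads none was called higher (0%) and 3 were called lower (25%), TRBJ1-2 (0.523), TRBJ1-3 (0.606) and TRBJ1-5 (0.644).

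Summed over the cluster, TRBJ1 genes took 29.3% of DN and 36.6% of CD4 clonotypes and TRBJ2 genes 70.7% and 63.4%. The CD8 library lay near the DN library, with 69.3% in TRBJ2. In non-productive clonotypes the TRBJ2 cluster took 71.5% of DN and 70.1% of CD4 clonotypes, a ratio of 1.02 (0.990 to 1.05).

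The D segment differed in the same direction. TRBD2 was the best match in 39.7% of DN and 28.8% of CD4 clonotypes (ratio 1.38, interval 1.35 to 1.41), and TRBD1 in 37.0% and 44.7%. No D segment could be assigned in 23.3% and 26.5%. Since TRBD2 normally joins TRBJ2 genes, the shares were also taken within each cluster. Among TRBJ2 clonotypes TRBD2 was assigned in 53.5% of DN and 42.3% of CD4 clonotypes, whereas among TRBJ1 clonotypes TRBD1 was assigned in 60.1% and 61.2%. TRBD2 was assigned in 6.36% of DN and 5.45% of CD4 TRBJ1 clonotypes, although it does not normally join that cluster. Whether these D calls are wrong was not tested. Among non-productive clonotypes TRBD2 took 43.1% of DN and 38.1% of CD4 clonotypes, a ratio of 1.13 (1.07 to 1.196).

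V and J segments were also compared as pairs. Of 171 V-J pairs tested, 50 were called higher in DN by clonotypes (29.2%) and 67 lower (39.2%), and by reads 47 were higher (27.5%) and 75 lower (43.9%). Of the pairs called by clonotypes, 40 higher and 60 lower were called the same way by reads. The 6 pairs with the highest ratios, among the 150 pairs with at least 100 clonotypes, held TRBV17 in 5 cases. TRBV17 with TRBJ2-7 had 963 DN and 286 CD4 clonotypes, a ratio of 3.64. TRBV17 followed with TRBJ1-1 (3.36), TRBJ2-1 (3.09), TRBJ2-5 (2.98) and TRBJ1-4 (2.91), and TRBV13-3 with TRBJ1-5 had 85 and 31 clonotypes (2.97). By reads the first 3 TRBV17 pairs had ratios of 3.47, 2.86 and 3.86, with intervals above 1. TRBV17 with TRBJ2-5 had 1.60 by reads (0.871 to 2.93) and with TRBJ1-4 1.44 (0.696 to 2.99), and both intervals hold 1. TRBV13-3 with TRBJ1-5 had 4.38 by reads (1.21 to 15.8).

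The 6 pairs with the lowest ratios held TRBV20 in 5 cases. TRBV20 with TRBJ1-5 had 8 DN and 117 CD4 clonotypes (ratio 0.0739), and TRBV2 with TRBJ1-3 had 7 and 102 (0.0742). TRBV20 followed with TRBJ1-3 (0.105), TRBJ2-2 (0.113), TRBJ2-4 (0.121) and TRBJ1-4 (0.138). By reads these 6 pairs had ratios from 0.0263 to 0.0867. All 12 TRBV20 pairs and all 12 TRBV2 pairs were called lower, and so were 11 of 11 tested TRBV26 pairs and 11 of 12 TRBV4 pairs. All 12 pairs of TRBV1, of TRBV13-3 and of TRBV17 were above 1, and 10, 9 and 10 of them were called higher. TRBV13-2, equal as a whole, ranged from 0.530 with TRBJ1-2 to 1.21 with TRBJ2-1.

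For most pairs the difference went with that of their V and J genes taken singly. When the share of each pair was divided by the product of its V share and its J share in the same library, the DN and CD4 values were within 1.2-fold of each other for 117 of 171 pairs, and they differed by 1.5-fold or more for 10 pairs, 3 higher and 7 lower in DN. TRBV13-3 with TRBJ1-5 was one of the 3, with 0.946 in DN and 0.469 in CD4 (2.02-fold), and TRBV2 with TRBJ1-3 one of the 7, with 0.331 and 0.964 (0.343-fold). They rest on 116 and 109 clonotypes in both libraries together.

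**Figure D3:**
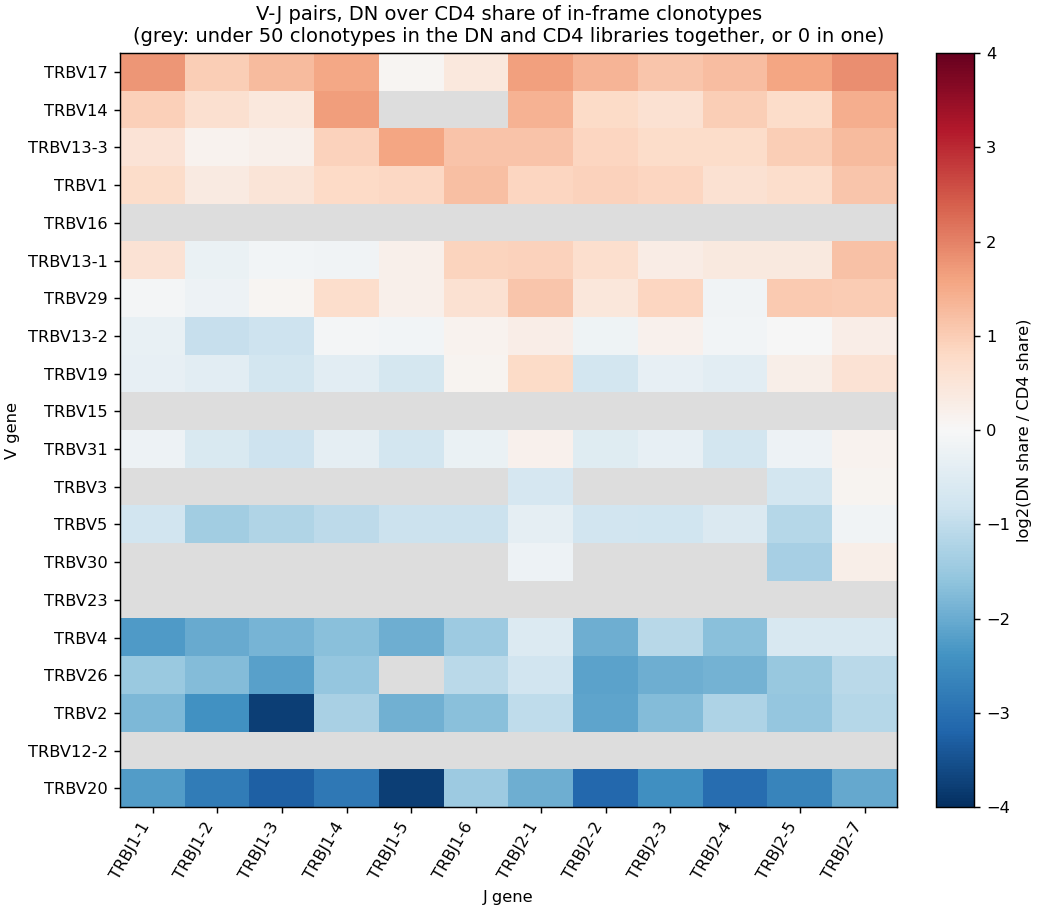
Log2 of the DN over CD4 share of in-frame clonotypes for each V gene (rows, ordered by their own ratio) and J gene (columns); red is higher in DN, blue lower, and grey pairs had under 50 clonotypes. The colours run along the rows, from TRBV17 at the top to TRBV20 at the bottom, where the pair with TRBJ1-5 reaches a ratio of 0.0739.

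The CDR3 was longer in DN clonotypes. The mean was 14.21 residues in DN (SD 1.51) and 13.92 in CD4 (SD 1.49), a difference of 0.297 residues (0.276 to 0.318), and the CD8 mean was 13.92. CDR3s of 13 residues or fewer made up 28.6% of DN and 36.4% of CD4 clonotypes, and those of 17 or more 4.78% and 2.84% (ratio 1.68). By reads the means were 14.25 and 13.89, a difference of 0.353 (0.229 to 0.478). Within V genes the difference was 0.229 (0.207 to 0.250), and within V-J pairs it was 0.252 (0.231 to 0.274).

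By V gene, 12 of 20 had longer CDR3s in DN with an interval above 0, 1 had shorter ones and 7 had intervals that held 0. The differences were 0.559 residues for TRBV29, 0.503 for TRBV1, 0.475 for TRBV2, 0.418 for TRBV4 and 0.410 for TRBV13-3. TRBV17 showed 0.06 (-0.03 to 0.15) and TRBV20 -0.04 (-0.15 to 0.06), although these genes had the highest and the lowest DN over CD4 ratio of clonotype shares. TRBV3 had shorter CDR3s in DN, by -0.38 (-0.74 to -0.02), over 160 and 259 clonotypes. Among clonotypes with 10 to 99 reads the difference over all genes was 0.512 (0.421 to 0.603), and among those with 100 or more it was 0.03 (-0.39 to 0.45).

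The added length lay between the V and J ends. Each CDR3 was split into the bases at its start that matched the commonest sequence of its V gene, those at its end that matched that of its J gene, and the bases between. The middle part was 12.3 bases in DN and 11.4 in CD4 clonotypes, a difference of 0.885 (0.824 to 0.946), and 0.648 (0.581 to 0.714) within V-J pairs. The V part differed by 0.216 and the J part by -0.21 bases. In non-productive clonotypes, which have no reading frame to keep, the whole CDR3 had 43.1 bases in DN and 42.7 in CD4, a difference of 0.447 (-0.041 to 0.935) that could not be told from 0 at this depth.

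The CDR3 was also more acidic in DN clonotypes. Counting Lys and Arg as 1 and Asp and Glu as -1, the mean net charge was -0.94 in DN (SD 1.09) and -0.70 in CD4 (SD 1.03), a difference of -0.25 (-0.26 to -0.23), and -0.85 in CD8. A charge of -2 or lower was found in 30.1% of DN and 20.6% of CD4 clonotypes, and a charge of 0 in 24.5% and 30.7%. By reads the difference was -0.27 (-0.34 to -0.20). It was -0.20 within V genes and -0.13 within V-J pairs (-0.14 to -0.12). Of 20 V genes, 15 had a lower charge in DN with an interval below 0, and none had a higher one. TRBV4 differed by -0.42 (-0.48 to -0.36), the widest gap among the V genes with over 1000 clonotypes in each library, and TRBV5 by -0.03 (-0.08 to 0.02).

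**Figure D4:**
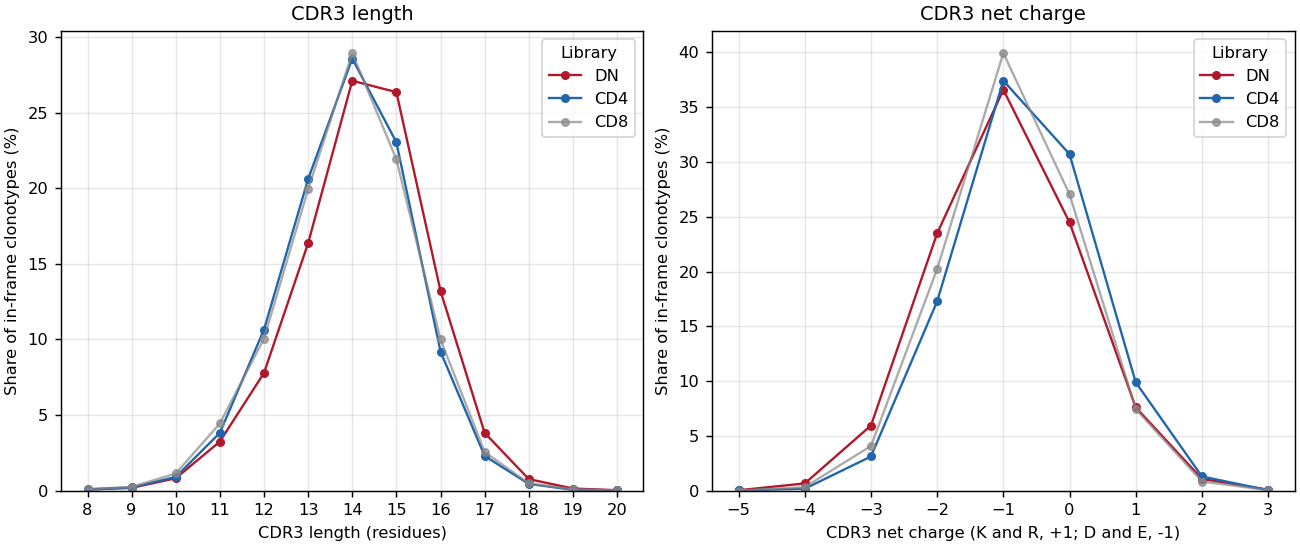
Share of in-frame clonotypes (%, vertical axis) by CDR3 length in residues (left) and by net charge (right) in the DN, CD4 and CD8 libraries. The DN curve lies to the right of the CD4 curve in length (means 14.21 and 13.92) and to the left in charge (means -0.94 and -0.70), and the CD8 curve follows CD4 in length and lies between in charge.

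The charge was split over 3 segments of the CDR3. The first 4 residues, mostly given by V, contributed -0.05, the last 5, mostly given by J, -0.05, and the middle -0.15 (-0.16 to -0.13). In the first 4 residues the difference was in Arg, with 7.65 per 100 CDR3s in DN and 12.4 in CD4. In the last 5 it was mainly in Glu, with 62.4 and 55.7 per 100. In the middle, Asp stood at 59.96 per 100 CDR3s in DN, 44.0 in CD4 and 48.0 in CD8. Arg, of the opposite charge, was also higher in the middle of DN CDR3s, with 41.0 and 37.4 per 100. The part matching the V gene averaged 13.1 bases in DN and 12.9 in CD4, so V bases can reach into the middle. In DN, the mean charge of the middle was -0.64 for TRBV13-1 and 0.34 for TRBV17. Within V genes the middle charge differed by -0.14 (-0.15 to -0.13). The Asp and Arg counts were not adjusted for V gene, and how far V use contributes to them was not tested.

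Asp in the middle can be encoded by a D segment, and one reading frame of TRBD2 gives Asp-Trp-Gly (DWG). A DWG tripeptide between the V and J ends was found in 4897 DN clonotypes (12.8%, interval 12.5 to 13.2%) and in 2006 CD4 clonotypes (4.86%, interval 4.65 to 5.07%), a ratio of 2.64 (2.51 to 2.78). In the CD8 library it was found in 6.81%. By reads the shares were 13.9% and 6.34%, a ratio of 2.19 (1.53 to 3.14). Other tripeptides of the D segments, searched with it after the charge difference had been seen, were GLG (ratio 1.199), DRG (1.06), GTG (0.796) and GQG (0.646). Among clonotypes assigned TRBD2, GLG had a ratio of 0.874 (0.809 to 0.944) and GTG of 0.636 (0.576 to 0.702). Among those assigned TRBD1, DRG had a ratio of 1.29 (1.199 to 1.38) and GQG of 0.786 (0.724 to 0.853). The 3 largest DN clonotypes with DWG, and the largest in CD4, are printed to show where the tripeptide lies, with its codons in capitals.
TRBV13-3 with TRBJ2-3, DN: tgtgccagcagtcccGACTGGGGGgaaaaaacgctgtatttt
TRBV31 with TRBJ2-7, DN: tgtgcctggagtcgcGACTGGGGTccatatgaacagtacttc
TRBV13-2 with TRBJ2-7, DN: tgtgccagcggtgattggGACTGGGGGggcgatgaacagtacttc
TRBV13-2 with TRBJ2-1, CD4: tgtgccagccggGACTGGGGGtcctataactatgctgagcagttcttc

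These had 583, 495 and 439 reads in the DN library, and 1275 reads in the CD4 library for the last. In DN the DWG clonotypes carried TRBJ2 genes in 98.6% of cases and in CD4 in 98.8%, and TRBD2 was their assigned D segment in 95.6% and 95.5%. Even among clonotypes assigned TRBD2, DWG was found in 30.9% of DN and 16.1% of CD4 clonotypes, a ratio of 1.92 (1.83 to 2.01). Within V-J pairs the DN share was higher by 7.06 percentage points (6.65 to 7.46), against 7.97 without that adjustment.

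The difference in DWG ran through V genes that were themselves higher, lower or equal in DN. Of the 20 V genes, 18 had DWG clonotypes in both libraries and thus a DN over CD4 ratio of the DWG share. This ratio had an interval above 1 in 15 genes and an interval below 1 in none. TRBV16 had a ratio of 0.881 with an interval of 0.296 to 2.63. TRBV4, lower in DN, had DWG in 21.7% of its DN and 5.54% of its CD4 clonotypes (3.91-fold), and in 14.4% of its CD8 clonotypes. TRBV13-1 had it in 15.9% and 5.52% (2.89-fold) and TRBV13-2 in 16.7% and 5.96% (2.81-fold). TRBV20 had it in 10.3% and 3.93% (2.63-fold) and TRBV26 in 7.30% and 1.26% (5.79-fold, interval 3.63 to 9.23). TRBV17 had a smaller ratio, with 6.75% and 3.68% (1.83-fold), and TRBV1 had 9.80% and 6.27% (1.56-fold).

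The 6 TRBJ2 genes, TRBJ2-1 to TRBJ2-5 and TRBJ2-7, each had ratios from 2.15 to 2.69. In clonotypes with 1 read the ratio was 2.50, in those with 2 to 9 reads 2.74, in those with 10 to 99 reads 3.34 (2.64 to 4.22), and in those with 100 or more 1.39 (0.663 to 2.93), the last over 28 DN and 8 CD4 clonotypes. In the CD8 library the DWG shares of these classes were 6.27%, 7.76%, 13.5% and 3.03%. The CD8 share at 10 to 99 reads was nearer to that of DN (15.4%) than of CD4 (4.62%). In each other class it was nearer to that of CD4. The DN and CD4 shares there were 12.1% and 4.83% at 1 read, 13.4% and 4.90% at 2 to 9, and 13.6% and 9.76% at 100 or more. The CD8 library also had fewer reads per clonotype, 1.88. With clonotypes common to the DN and CD4 libraries left out, the DN and CD4 shares were 12.7% and 4.02%.

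**Figure D5:**
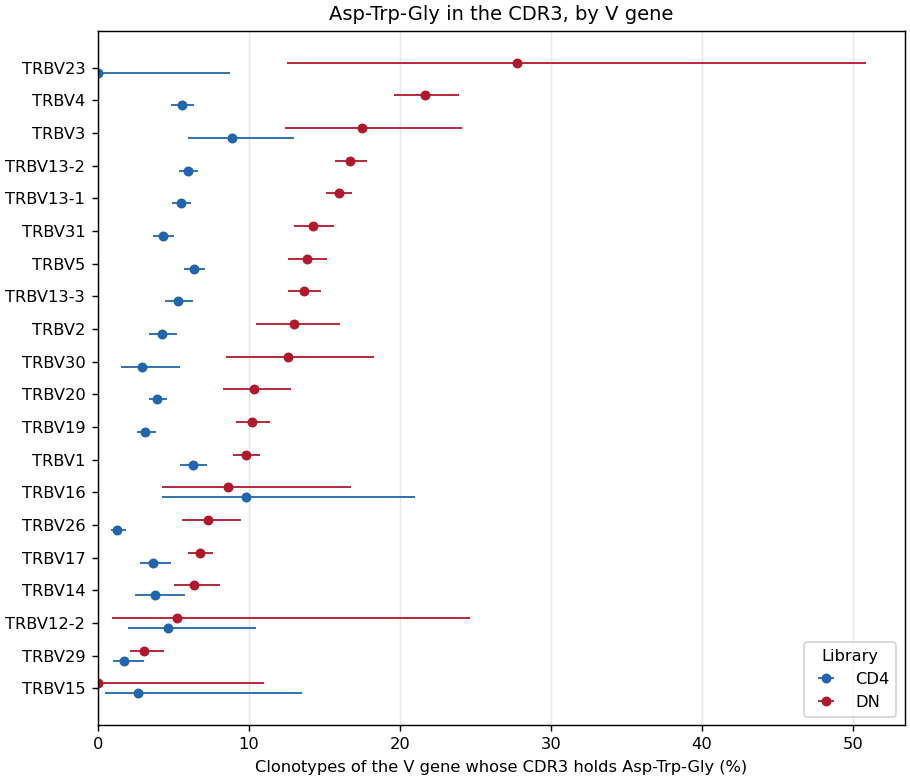
Share of each V gene's in-frame clonotypes whose CDR3 holds Asp-Trp-Gly (%, horizontal axis) in the DN and CD4 libraries, with 95% Wilson intervals, for the 20 tested V genes. DN lies to the right of CD4 for most genes, with 21.7% and 5.54% for TRBV4; the genes with wide bars have few clonotypes.

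The reading frame could be followed in the D segment itself. The 8 bases CTGGGGGG, the run of this length found in more non-productive TRBD2 clonotypes than any other, were present in 16.9% of DN and 11.3% of CD4 in-frame clonotypes. They read as Trp-Gly in 60.6% of these DN clonotypes (59.4 to 61.8%), in 38.8% of the CD4 (37.4 to 40.2%) and in 42.0% of the CD8 clonotypes. The frame that gives Leu-Gly was used in 23.4% of DN and 29.8% of CD4 clonotypes, and that which gives Gly-Gly in 16.1% and 31.4%. In non-productive clonotypes the same bases were found in 21.0% of DN and 17.7% of CD4 clonotypes, a ratio of 1.19 (1.08 to 1.304). In frame, over all 3 reading frames, its ratio was 1.496 (1.44 to 1.55). Without the DWG clonotypes the charge difference was -0.16 (-0.18 to -0.15) in place of -0.25, that of the middle -0.08 in place of -0.15, and the length difference 0.235 residues in place of 0.297. The direction of these changes was fixed in advance. DWG clonotypes were more common in DN, had mean charges of -1.85 in DN and -1.69 in CD4, and had mean lengths of 14.9 and 14.8 residues.

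The libraries shared 3586 in-frame clonotypes with the same bases, V gene and J gene, which is 9.39% of the DN and 8.68% of the CD4 clonotypes. They held 50.2% of DN and 22.03% of CD4 reads. Of the shared clonotypes, 1871 were found in the CD8 library too. Of all clonotypes, 7482 DN (19.6%) and 3801 CD4 (9.20%) were found in the CD8 library, which is the largest, with 77240 clonotypes. The share of reads was at least 10 times higher in DN for 785 of the shared clonotypes and at least 10 times higher in CD4 for 261. How far sorting, reads passed between libraries or clones present in both subsets contribute to this overlap was not tested. In V use the shared clonotypes had 19.9% TRBV13-1, 6.72% TRBV17 and 3.01% TRBV20, against 1.80% TRBV20 in the whole DN library. Leaving shared clonotypes out moved the length difference to 0.326 residues and the charge difference to -0.27.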

How the data were processed

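TCR alpha and beta mRNA was amplified with the Takara SMARTer Mouse TCRα/β kit, and the authors aligned, assembled and exported clonotypes with MiXCR, whose version and settings are not given in the sources used here. The deposited tables hold, for each nucleotide CDR3, the count of reads, not normalized, and its fraction of the table's reads, which the authors computed from the same counts and which was checked but not used. Only the best V, D and J genes are listed, so reads of similar V genes could have been assigned to either. A CDR3 made with different V genes may have been counted once. The files name no genome build, and RefSeq (GRCm38.p6) served for gene names only.

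In-frame TRB clonotypes were compared by share (Wilson 95% intervals), by share ratio and by Fisher's exact test on clonotypes, over features with at least 50 clonotypes. Read shares have errors with the clonotype as the unit. A count of 0 was taken to allow 3 counts. Differences within V genes or V-J pairs were averaged with clonotypes as weights, and those by reads with read shares as weights. The V genes named were those past 1.5-fold, the largest of each library, the Vβ8 genes and the superantigen lists, and the pairs were the 6 highest and 6 lowest of those with at least 100 clonotypes. Members, lists and tests were chosen with earlier results of these data known, and DWG and the D frames after the charge values had been seen. Alternatives changed the reads required, error merging, shared clonotypes, the fold and the clonotype definition. V gene share ratios, the mean length difference and error merging were tested on simulated data, and the other measures were not. Scripts ran in Python 3.11.15 (pandas 2.3.3 for tables, NumPy 2.4.6 and SciPy 1.17.1 for tests, matplotlib 3.10.9 for plots).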

Additional observations from a re-analysis of the deposited data

Results flagged for a closer look

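The tables also held TCR alpha clonotypes, which no comparison above uses: 78 in the DN library, with 85 reads (0.0437% of its reads), and 82 in the CD4 library, with 101 reads (0.0755%). They were listed because they are signal outside the TCR beta comparison. The cause of their low number was not tested. Tests for a library that stands apart from its replicates could not be made, since each subset had 1 library.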

How the results depend on the processing

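No paired analysis was possible because each subset had 1 library and the labels carry no replicate numbers. The alternatives were a minimum of 2 reads, merging of likely sequence errors (1 mismatch, 10-fold fewer reads), clonotypes found in only 1 of the 2 libraries, clonotypes not in the CD8 library, amino acid clonotypes, non-productive clonotypes included, the 10000 clonotypes with most reads, removal of the 100 largest, a lower fold or a fold of 2, and a minimum of 200 clonotypes. Counts of called V genes ranged from 8 to 16 by clonotypes and from 7 to 17 by reads, against 13 in each, and left the 1.5-fold range only at a fold of 2, with 8 and 7. J genes called were 5 by clonotypes and 7 by reads at the lower fold, and 0 in each at a fold of 2. V-J pairs called by clonotypes were 70 at a fold of 2 and 65 among the 10000 largest clonotypes, where 117 pairs had enough clonotypes, and by reads 78 among these. There, 16 pairs differed by 1.5-fold in pairing.

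The length difference by clonotypes was 0.350 residues with at least 2 reads, 0.326 for clonotypes in 1 library, 0.393 among the 10000 largest, 0.229 within V genes and 0.252 within V-J pairs. The charge difference by clonotypes was -0.27 for clonotypes in 1 library and -0.27 among the 10000 largest, -0.20 within V genes, -0.13 within V-J pairs and -0.15 without the CDR3 ends, and by reads it was -0.15 within V-J pairs and -0.14 without the ends. The shared part of DN clonotypes was 7.71% with at least 2 reads, 12.6% by amino acid sequence, 7.41% among the 10000 largest and 9.003% without the 100 largest. Of the values of single V genes over all alternatives, 297 stayed on their side of 1 or across it as before, and so did 180 of J genes and 184 of the 12 pairs; 11, 2 and 2 lost and 8, 10 and 2 gained an interval clear of 1. A pair of gene values turned direction: TRBV16 by clonotypes was at 0.926 with non-productive clonotypes included, whose own ratio was 0.542, and TRBV13-2 by reads was at 1.03 without clonotypes found in CD8. The cause of the latter was not tested. Across 1 from a value that could not be told from 1 lay TRBV13-2 by clonotypes (1.09 among the 10000 largest) and TRBV23 by reads (0.453 without clonotypes found in CD8). The TRBD1, TRBD2 and DWG ratios kept their direction and an interval clear of 1 under all 7 alternatives, which were chosen after seeing the data. Depth limits the rare genes TRBV12-2, TRBV15, TRBV16 and TRBV23 and the clonotypes with 100 or more reads. Without clonotypes found in CD8, no DN clonotype with 100 or more reads remained, so the classes by reads could not be formed. Under the other 3 alternatives for them, 8 to 12 V genes lay on one side of 1 in every class, against 11.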
